A study of Sus scrofa with 20 samples.

Results

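The uteri of 5 sows that were never inseminated served as the control group of a pig study with 20 sows in all, and their spread is described here: which genes differed most from one control uterus to the next, which of these genes moved together, and how the spread compared with that inside the inseminated groups. The 5 control libraries were taken by their column names. A gene entered the control set when it reached 1 CPM, a count scaled to a library total of 1000000, in at least 2 of the 5 controls, which 14900 of 30345 gene rows did. Genes were ranked by the standard deviation (SD) of log2(CPM + 0.5) over the 5 controls, and the upper 5%, 745 genes, are called the most variable genes below. The choice of these genes uses their control values, so their control SDs are given as a description without a test.

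All sows were wild-type Large White by Landrace crosses, and the uterus was taken 6 days after estrus began. Besides the non-inseminated controls there were 3 inseminated groups of 5 sows, which received semen of 3 Pietrain boars: FR1 only the rich fraction of the ejaculate, FR2 that fraction together with the intermediate one, and FR3 both of these plus the poor fraction. Parity, ovarian findings, the layer of the uterine wall sampled and which inseminated sows held embryos are not given in the sources used here. Each library was made from 1 uterus, and the columns name the group but not the sow.

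In the days after estrus the corpora lutea form and progesterone replaces estrogen as the leading ovarian steroid. Under progesterone the epithelium of the pig endometrium stops dividing and its glands begin to secrete histotroph, the mixture of transport proteins, enzymes, protease inhibitors and growth factors that nourishes the embryos before implantation. Uteroferrin (ACP5), retinol-binding protein (RBP4), uterine plasmin/trypsin inhibitor (UPTI) and osteopontin (SPP1) are well-known parts of it. The uterine wall also holds stroma, smooth muscle, vessels and immune cells. In RNA of whole tissue, fewer cells of a type and less RNA per cell cannot be told apart.

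Total counts, in units of 1000000, were 39.9 to 50.9 in the control libraries and 33 to 62.9 over all 20 libraries, and the controls had 18499 to 19640 genes with a count above 0. Mitochondrially encoded genes took 3.22% of the counts in control 3 and 2.33% to 2.58% in the other 4 controls. Epithelial and muscle markers were present in each control: EPCAM, an epithelial adhesion molecule, was at 256 to 555 CPM, and MYH11, the myosin heavy chain of smooth muscle, at 172 to 4560 CPM. No library repeated another: even the closest of all pairs had a mean chi-square over genes of 49.9. Among the inseminated libraries, FR1_1, FR1_4, FR2_3 and FR3_4 stood apart from their own groups in several epithelial genes. GABRP, a GABA receptor subunit of epithelia, was at 44.8 to 65.3 CPM in these 4 and at 150 to 1450 CPM in the other 11. Results on the spread of the inseminated groups are therefore also given without these 4.

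The controls spread more widely than any inseminated group. Over the 15561 genes that reached 1 CPM in at least 2 of 5 libraries of any group, the median SD on the log2 scale was 0.566 in the controls, 0.319 in FR1, 0.261 in FR2 and 0.418 in FR3. The ratio of the control SD to the pooled within-group SD of the 3 inseminated groups had a median of 1.56, with the middle of the genes, from the 25th to the 75th percentile, between 1.09 and 2.24. It exceeded 1 in 79.8% of the genes and 2 in 32.2%. Of the 4 groups, the controls had the highest SD in 63.7% of the genes. For the 14900 genes of the control set the median ratio was 1.59. Without the 4 inseminated libraries that stood apart, a setting added after the data were seen, it was 1.81. Leaving out libraries that stand apart from their groups tends to lower the inseminated SD, so nothing is read from that rise.

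All 5 controls lay far from their group mean. The root mean square deviation of a library from its group mean over the 15561 genes was 0.902, 0.782, 0.896, 0.825 and 0.939 in controls 1 to 5. In the 15 inseminated libraries it ran from 0.323 through a median of 0.496 to 0.86. Only FR3_4, at 0.86, lay above the lowest control, while the other 14 lay below all 5. The means were 0.869 ± 0.0637 (SD, n = 5) and 0.518 ± 0.135 (SD, n = 15), a difference of 0.35 (exact permutation test, 2-sided, p = 0.000193 over 15504 sets, of which the smallest possible is 6.45e-05). Leaving out any 1 of the 20 libraries gave differences of 0.326 to 0.385, with exact permutation p from 8.6e-05 to 0.00103. The deviations were centred once on the true groups and not centred again for each set, and libraries of a group share a mean. The permutation p-values are therefore approximate. The labels give day 6 after the onset of estrus for every sow and do not describe handling, and the p-values measure only the spread between these libraries.

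**Figure D1:**
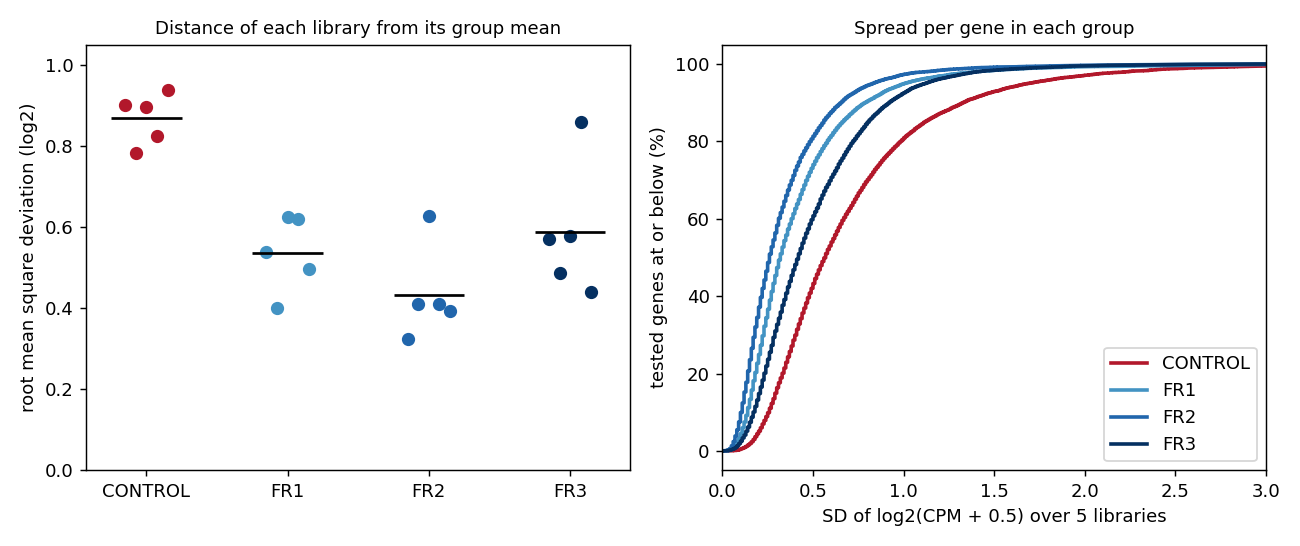
Left, the root mean square deviation of each library from its group mean (log2 units, 15561 genes), with 1 point per library and a bar at the group mean. Right, the share of tested genes (%) at or below each SD of log2(CPM + 0.5) within a group. The 5 controls sit between 0.782 and 0.939, with only FR3_4 among the inseminated libraries above the lowest of them, and the control curve lies to the right of the other 3.

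The controls also differed from each other in how close they were. Spearman's coefficient over genes was 0.843 to 0.919 for the 10 control pairs, with controls 2 and 3 the closest pair and controls 3 and 5 the farthest apart. A principal component analysis of the 5 controls put 36.4% of the variance on a component with controls 2 and 3 at one end (55.3 and 80.3) and controls 1, 4 and 5 at the other (-71.3, -34.1 and -30.3). A further 29.9% set control 5 (94.2) against the rest, and 19% set control 1 (57.5) against control 4 (-71.4). The controls thus did not fall along a single axis.

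A gene-by-gene test of the spread compared the absolute deviations from the group mean between the controls and the 3 inseminated groups (limma's moderated test, Benjamini-Hochberg adjusted p below 0.05). It passed 3140 of 15561 genes (20.2%) as wider in the controls and 28 (0.18%) as narrower. The calls depend on how a group is centred: with deviations from the group median limma passed 0 genes in either direction, no gene of any list passed, the smallest adjusted p was 0.0852, and at an unadjusted p under 0.05 limma gave 2643 wider and 10 narrower. On simulated counts the test's false calls all went toward wider and were more frequent among the calls than the threshold allows. The simulation widened only a small part of the genes, so the share of false calls in the real data is unknown. The counts of wider genes, here and for the lists, may therefore be too high. They also include genes that reached 1 CPM only in controls, which were tested only through the libraries where they are high. A list's count of wider genes below is read against the 20.2% of all genes. Against 1 inseminated group at a time limma passed 117 genes as wider for FR1, 359 for FR2 and 18 for FR3.

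The most variable genes had control SDs from 1.71 to 5.18, with a median of 2.1, against a median pooled SD of 0.767 in the inseminated groups. At the border TMEM132C (SD 1.711) was the last gene inside and ANK2 (SD 1.71) the nearest outside. Of the 745 genes, 606 had their highest control above every inseminated library, as did 53.4% of all tested genes, and 416 had their lowest control below every inseminated library (46.7% of all tested genes). In 362 genes at least 2 controls exceeded all inseminated libraries (24.2% of all tested genes), and in 3 all 5 did (0.283%). Nothing is read from these counts, since genes were chosen by their control SD. In 186 genes the highest control exceeded the lowest by more than 100-fold with more than 3 counts in the lowest, and in 138 further genes the lowest control had 3 counts or fewer. The spread test passed 496 of the 745 genes as wider. Of the 745, 659 reached 1 CPM in at least 2 libraries of an inseminated group, and the rest were tested only through the controls. The control SD chose the 745 genes, so nothing is read from the count of 496.

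Several of the highest SDs belonged to genes of secreted and epithelial proteins. MEP1B, the beta subunit of the metalloprotease meprin, led with an SD of 5.18 and stood at 0.731, 218, 1220, 0.0636 and 0.306 CPM in controls 1 to 5. The inseminated libraries ran from 0 through a median of 1.19 to 3.74 CPM, so controls 2 and 3 were far above all of them and the other 3 controls inside their range. DMBT1, a mucosal scavenger protein of epithelia, was at 23.7, 0.518, 7.53, 4230 and 0.306 CPM, against 0 to 4.41 CPM after insemination. Here control 4 alone was extreme. SULT2A1, a steroid sulfotransferase, was at 0.23, 5.88, 1390, 0.17 and 0.353 CPM, against at most 0.273 CPM in any inseminated library, with control 3 alone extreme.

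Which controls were high together was read for each gene from the widest gap between its 5 sorted log2 values. Among the most variable genes the commonest set above the gap was controls 1 and 4 (105 genes, 14.1%, against 3.64% of the 14900 genes), followed by control 3 alone (96 genes, 12.9% against 5.68%) and controls 2 and 3 (66 genes, 8.86% against 3.23%). Control 5 alone (50 genes), control 4 alone (42) and control 1 alone (37) came next. Over all 14900 genes the commonest sets were instead control 5 alone (9.78%), controls 1, 2, 3 and 4, which leaves control 5 low (9.67%), and control 1 alone (8.95%). These shares describe 5 libraries and carry no test.

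**Figure D2:**
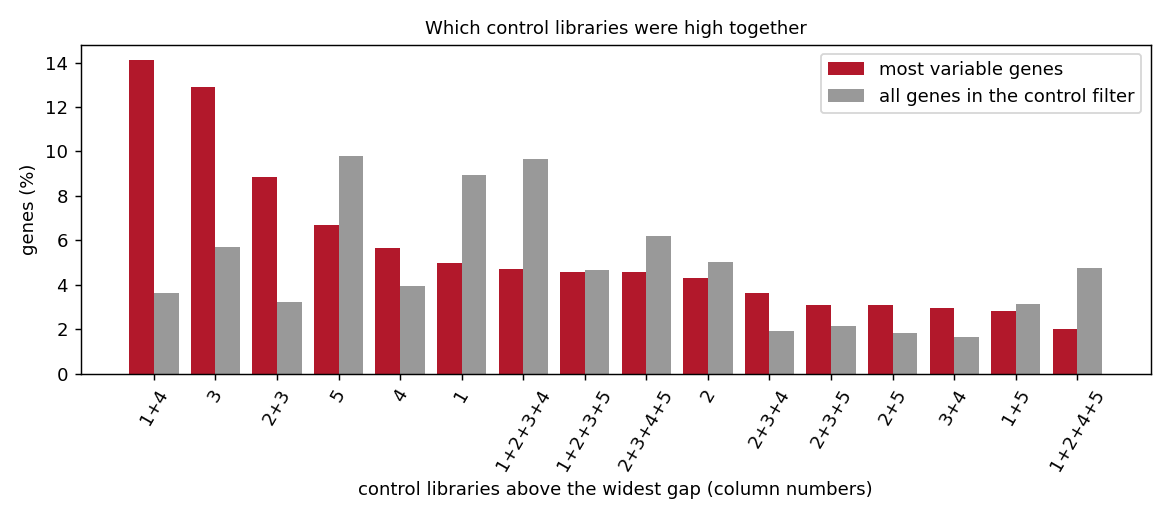
Share of genes (%) for the 16 most frequent sets of control libraries above the widest gap, among the 745 most variable genes (red) and all 14900 genes of the control set (grey). Controls 1 and 4 (14.1% against 3.64%), control 3 alone and controls 2 and 3 had larger shares among the most variable genes.

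Genes of cell division made up the clearest block and were high in controls 1 and 4. MKI67, the proliferation antigen Ki-67, was at 162, 0.933, 4.56, 94.3 and 2.23 CPM in controls 1 to 5, and at 3 to 105 CPM (median 25.7) in the inseminated libraries. Control 1 was above all 15 and controls 2 and 5 below all 15, a 174-fold range within the controls. TOP2A, the topoisomerase that untangles DNA in dividing cells, was at 178, 0.933, 2.6, 67.1 and 2.66 CPM, against 3.88 to 110 CPM after insemination. CCNB1, the cyclin that drives entry into mitosis, was at 170, 0.492, 1.34, 38 and 4.51 CPM, against 10.8 to 55.1 CPM. In both genes control 1 was above every inseminated library and controls 2, 3 and 5 were below every one.

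All 30 tested genes of a cell cycle list passed the spread test as wider, against 20.2% of all genes, and 22 were among the most variable. In 28 of the 30 the set above the gap was controls 1 and 4, against 3.64% of all genes of the control set. The exceptions were MCM6, a subunit of the replicative helicase (95.5, 16.3, 10.4, 54.1 and 31.4 CPM), where control 5 joined them, and TYMS, thymidylate synthase (80.5, 10.7, 1.08, 59.7 and 21 CPM), where control 3 alone was low. The mean log2 level of the list was 5.78, 1.18, 1.61, 4.88 and 1.79 in controls 1 to 5, a 24.3-fold range. The inseminated libraries lay between 2.09 and 4.92, so control 1 exceeded them all, control 4 sat at their upper end, and controls 2, 3 and 5 were below them all. The count of wider genes falls to 9 without control 1, to 24 without control 4 and to 1 without both.

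The same pattern covered helicase subunits of DNA replication and mitotic genes alike. MCM3 was at 66.5, 6.58, 5.55, 72.2 and 9.82 CPM and MCM4 at 62.9, 4.2, 8.17, 65.5 and 4 CPM, so controls 1 and 4 were nearly level. In the mitotic regulators control 1 was higher than control 4. UBE2C, which marks mitotic cyclins for breakdown, was at 75.9, 0.233, 1.4, 27.4 and 1.18 CPM, and CENPF, a kinetochore protein, at 70.8, 0.389, 1.06, 36.5 and 0.494 CPM. E2F1, a transcription factor of S-phase entry, was higher in control 4 (31.9 CPM) than in control 1 (17.4 CPM). Smooth muscle and stromal markers were lower in control 1, as given below, and the epithelial list was near level (7.97 in control 1, 7.41 to 8.15 over the controls); their part in the cell cycle values was not tested.

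Genes outside the cell cycle list shared this pattern. SLC34A2, a phosphate transporter of epithelia, was at 178, 0.752, 0, 201 and 2.66 CPM, against 5.9 to 59.4 CPM after insemination, so 2 controls were above and 3 below every inseminated library. CRABP2, a cytoplasmic carrier of retinoic acid, was at 12.8, 0.363, 0, 19.3 and 0.282 CPM, against 1.73 to 7.12 CPM, with the same split. TNFAIP2, a gene induced by tumor necrosis factor, was at 142, 30.2, 9.44, 217 and 26.1 CPM. LAMA3, a laminin chain, was at 253, 18.8, 30.3, 194 and 2.87 CPM, but also ranged widely after insemination (5.89 to 642 CPM, SD ratio 1.06).

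The genes high in controls 1 and 4 also moved together in sows outside the control group. Over the 15 inseminated libraries, each centred on its group, the median Spearman coefficient between pairs of the 99 genes expressed there was 0.77, against 0 over all genes. It was 0.71 for the 78 genes that are not on the cell cycle list and 0.79 without the 4 libraries that stood apart. The others of the 6 most frequent sets had lower values: 0.01 for control 3 alone, 0.06 for controls 2 and 3, 0.15 for control 5 alone and 0.1 for control 4 alone. For control 1 alone the coefficient was 0.56, and 0.24 without the 4 libraries. The less frequent sets ran from -0.08 for controls 1, 2, 4 and 5 to 0.52 for controls 2, 3, 4 and 5. These coefficients describe 15 libraries that share their processing, and no test was made.

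Of the steroid receptor and response genes, only PGR had controls 1 and 4 above the gap (1 of 24). PGR, the progesterone receptor, was at 80.2, 17, 10.1, 101 and 22.1 CPM, against 15.2 to 51.2 CPM after insemination, so controls 1 and 4 were above all inseminated libraries and control 3 below. ESR1, the estrogen receptor alpha, was at 272, 209, 98.6, 384 and 195 CPM, against 181 to 436 CPM, and only control 3 left that range. MSX1, a homeobox gene of the endometrium, was at 597, 175, 136, 600 and 620 CPM, against 421 to 769 CPM, with controls 2 and 3 low. Its relative MSX2 was at 134, 42.6, 25.6, 75.8 and 162 CPM, against 125 to 214 CPM. Of 24 tested genes on the list of steroid receptors and response genes, 5 passed as wider, which is 20.8% against 20.2% of all genes; 8 passed without control 2, 10 without control 3 and 8 without control 5.

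Other members of that list were split differently. HSD11B2, which inactivates cortisol, was at 39, 7.62, 2.67, 6 and 75.8 CPM, against 31.4 to 111 CPM, with controls 2, 3 and 4 below every inseminated library. OXT, the oxytocin gene, was at 1.61, 1.19, 40, 79.5 and 3.5 CPM, against at most 2.76 CPM. OXTR, the oxytocin receptor, which was picked after its values were seen, was at 4.34, 54.5, 12.4, 4.45 and 2.04 CPM, against 0.366 to 17.6 CPM. HSD17B2, which inactivates estradiol, was at 5.28, 27.8, 402, 0.445 and 13.1 CPM, but ran from 0.0223 to 119 CPM after insemination (SD ratio 1.19). The labels give the same day after estrus for all sows, and an effect of cycle stage was not tested.

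Several histotroph genes were high in controls 2 and 3. RBP4 was at 4.26, 2240, 13100, 31.2 and 70.9 CPM in controls 1 to 5, a 3080-fold range, and at 2.35 to 38.1 CPM (median 12.6) after insemination. Controls 2, 3 and 5 were above every inseminated library and the other 2 inside their range. ACP5 was at 11.6, 641, 2420, 66.9 and 29.8 CPM, against 3.29 to 40.5 CPM. UPTI was at 5.79, 2760, 1430, 8.97 and 660 CPM, with control 5 high as well, and ran from 0 to 221 CPM after insemination (SD ratio 1.65). In all 3 genes control 1 was the lowest control.

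FGF7, keratinocyte growth factor, was at 0.272, 404, 449, 3.48 and 1.1 CPM, against 0.151 to 1.98 CPM. STC1, the hormone stanniocalcin, was at 0.376, 22.4, 144, 0.594 and 0.0235 CPM, against 0.156 to 4.39 CPM. SPP1, osteopontin, took another pattern, at 3.65, 11.8, 1360, 758 and 7.43 CPM, against 3.02 to 8.88 CPM, with controls 3 and 4 high. LIF, a cytokine secreted by the endometrium, was at 0.794, 14.3, 76.7, 6.34 and 1.01 CPM, against 0 to 1.94 CPM. UABP-2, a uteroferrin-associated protein, reached 877 CPM in control 3 and 7.26 CPM in control 2, while the other controls were at 0.17 to 0.259 CPM and the inseminated libraries at no more than 0.073 CPM.

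Of the 18 tested genes on the gland and histotroph list 10 passed as wider and 12 were among the most variable. Control 3 was alone above the gap in 5 of the 18, against 5.68% of all genes of the control set. Controls 2 and 3 were together above it in 4, against 3.23%. The mean log2 level of the list was 3.5, 5.55, 7.18, 4.84 and 3.84 in controls 1 to 5, a 12.8-fold range, and 3.33 to 3.98 in the inseminated libraries. Controls 2, 3 and 4 were thus above all 15. Each control had its own combination: LGR5, a receptor of epithelial progenitor cells, was at 37.4, 5.83, 0.829, 51.6 and 0.118 CPM, high where the dividing-cell genes were. The count of wider genes was 7 without control 3 and 6 without controls 2 and 3. In the inseminated libraries the list's genes had a median pair coefficient of -0.07, so they did not rise and fall together there.

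Further genes of controls 2 and 3 had varied roles. SOD3, extracellular superoxide dismutase, was at 18.9, 2480, 5320, 42.3 and 17.2 CPM, against 6.31 to 31.2 CPM. ASAH1, the lysosomal acid ceramidase, was at 304, 2520, 3590, 283 and 172 CPM, against 81.4 to 706 CPM. CRIM1, a membrane protein that binds bone morphogenetic proteins, was at 61.3, 1480, 731, 22.5 and 68.2 CPM. TIMP2, an inhibitor of matrix metalloproteases, was at 229, 1860, 1800, 262 and 233 CPM, against 145 to 436 CPM, so 3 controls were nearly level and inside the inseminated range. PTGS2, the inducible prostaglandin synthase, was at 19.5, 346, 415, 7.81 and 7.47 CPM, against 0 to 35.8 CPM.

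**Figure D3:**
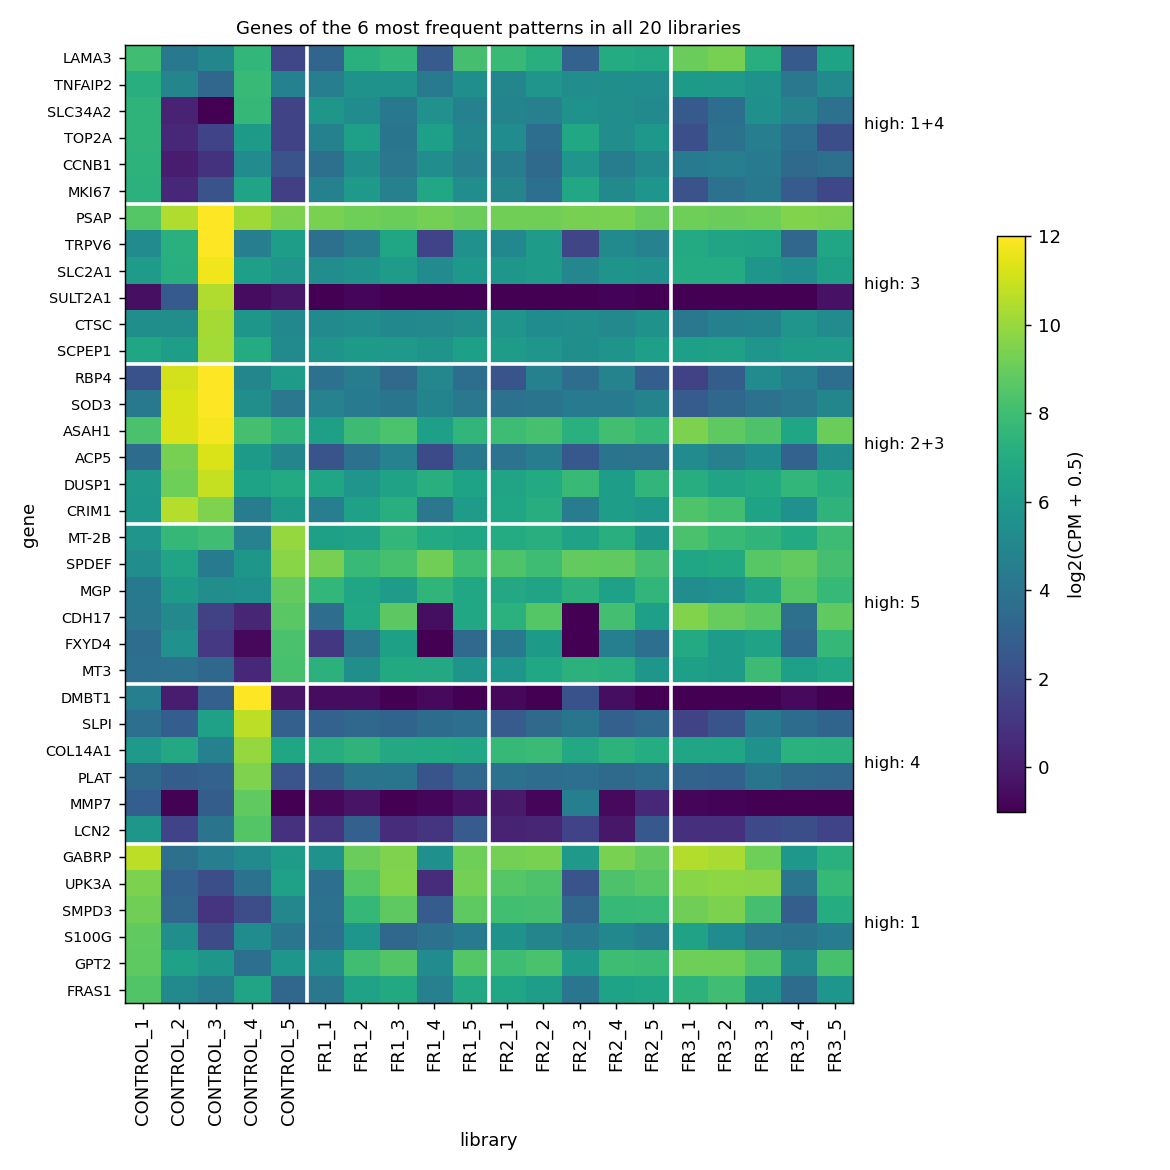
Level (log2(CPM + 0.5), color) of 6 genes for each of the 6 most frequent sets of high control libraries, in all 20 libraries in columns. The first 5 columns show the split that placed each gene; to their right, genes of controls 1 and 4 and of control 1 vary among the inseminated libraries too, while SULT2A1, DMBT1 and MMP7 stay low in nearly all of them.

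Immediate early genes, which cells switch on within minutes of a stimulus or of handling, had their highest mean levels in controls 2 and 3. FOS was at 5.05, 160, 239, 37.7 and 8.53 CPM, against 9.88 to 63.8 CPM, and EGR1 at 3.36, 123, 233, 23.7 and 16.2 CPM, against 10.9 to 79 CPM. IER3, an early gene of stress responses, was at 0.794, 217, 700, 130 and 6.25 CPM, against 0.926 to 11.4 CPM. ATF3, a stress-induced transcription factor, was at 4.91, 192, 173, 43.5 and 6.91 CPM, against 5.16 to 77.4 CPM. In each of these genes control 1 was the lowest control and below all inseminated libraries.

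Of 23 tested genes on the immediate early list 14 passed as wider. Controls 2 and 3 were above the gap in 7, against 3.23% of all genes of the control set. Controls 2, 3 and 4 were above it in 4, against 1.92%. The list's mean log2 level was 3.3, 5.83, 6.32, 4.86 and 3.92, against 3.51 to 5.02 after insemination, an 8.11-fold range over the controls. The count was 8 without control 3 and 5 without controls 2 and 3. In the inseminated libraries these genes had a median pair coefficient of 0.55, so unlike the histotroph genes they moved together there. Controls 2 and 3 were thus high in the histotroph and immediate early lists at once, and the part of tissue handling in either was not tested. The heat shock list differed less, at 6.78 to 7.22 over the controls, although HSPA6, a strictly inducible heat shock protein, was at 2.09, 48.3, 233, 41.4 and 1.86 CPM, against 0.641 to 4.03 CPM.

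The highest-level genes with control 3 alone above the gap included a few of lysosomes and of membrane transport. PSAP, the precursor of the saposins that activate lysosomal lipid breakdown, was at 384, 1390, 16900, 1130 and 683 CPM, against 499 to 753 CPM. The lysosomal proteases CTSC (44, 42.4, 1230, 59.3 and 33.4 CPM) and SCPEP1 (98.9, 78.1, 1190, 129 and 36.5 CPM) had the same shape. SLC2A1, the glucose transporter GLUT1, was at 73.5, 145, 3410, 81.8 and 55.2 CPM, against 32.5 to 128 CPM. TRPV6, an epithelial calcium channel, was at 38, 154, 5300, 23.2 and 75.2 CPM, against 2.52 to 124 CPM.

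Of the 96 most variable genes with control 3 alone above the gap, 95 had control 3 above every inseminated library, against 20.7% of all tested genes. In 9 of the 96 the other 4 controls were all inside the inseminated range. The 96 genes were chosen by their control values, so nothing is read from these counts. Of 21 tested genes on the hypoxia response list 5 passed as wider, 2 without control 3 and 8 without control 4. ADM, adrenomedullin, was at 10.5, 6.14, 445, 34.4 and 6.42 CPM, and PFKFB3, an activator of glycolysis, at 20.6, 20.9, 349, 24.2 and 15 CPM. HK2, hexokinase 2, went another way, at 68.3, 1.68, 0.76, 0.552 and 4.98 CPM, with 4 controls below every inseminated library (5.2 to 198 CPM). The mitochondrial share of counts was also highest in control 3, and its part in these values was not tested.

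Several mucosal defence and acute phase genes were far higher in control 4 than in the other controls. Control 4 was alone above the gap in 4 of 14 tested mucosal defence genes and in 8 of 21 complement and acute phase genes. Over all genes of the control set it was so in 3.93%. SLPI, a secreted inhibitor of leukocyte proteases, was at 12.7, 6.92, 87.7, 1660 and 7.45 CPM, against 2.67 to 20.7 CPM. LCN2, an iron-withholding lipocalin, was at 59.3, 2.57, 15.7, 361 and 1.32 CPM, against 0.404 to 7.52 CPM, and LTF, lactoferrin, at 2.65, 0, 0, 90.1 and 3.43 CPM, against 0.384 to 3.13 CPM. MMP7, the metalloprotease matrilysin, was at 6.91, 0.0259, 6.49, 460 and 0 CPM. PLAT, tissue plasminogen activator, was at 10.9, 6.56, 8.13, 712 and 4.87 CPM, against 4.74 to 16.1 CPM, so the other 4 controls matched the inseminated range.

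The mucosal defence list had 7 of 14 tested genes wider and mean log2 levels of 3.14, 3.01, 4.24, 5.39 and 2.07, against 1.03 to 2.62 after insemination. Only control 5 was inside that range. Of the 14 genes, 12 reached 1 CPM in at least 2 libraries of an inseminated group, and the rest were tested only through the controls. MUC4, a membrane mucin, was at 26.8, 34.2, 883, 490 and 0.705 CPM, against 0.467 to 12.7 CPM, while AGR2, a folding factor for mucins, was high in control 2 instead (14.2, 1090, 121, 29.9 and 2.61 CPM). The complement and acute phase list had 11 of 21 genes wider, and 5 without control 4. C3, the central complement component, was at 63.1, 26.6, 52.4, 527 and 52 CPM, against 25.4 to 71.8 CPM. SAA3, a serum amyloid, was at 0.0835, 0.829, 23.4, 78.6 and 0.235 CPM; near-identical serum amyloid genes can share reads, so its value is uncertain.

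Macrophage markers were highest in controls 3 and 4, with smaller SDs (median 0.941) than the mucosal defence genes (2.13). The macrophage and monocyte list had 8 of 14 genes wider and 3 without control 3 or without control 4, and its mean log2 level was 2.91, 2.26, 3.67, 4.11 and 2.57, against 2.04 to 3.8 after insemination. C1QA, a complement subunit made by macrophages, was at 21.5, 12.4, 58.5, 96.8 and 13.5 CPM. CD14, the co-receptor for lipopolysaccharide, was at 2.72, 4.87, 58.1, 3.71 and 5.38 CPM, so only control 3 left the inseminated range of 2.37 to 6.44 CPM. The neutrophil list had 4 tested genes, of which CSF3R, S100A9 and MMP8 passed (1 gene without control 3 or without control 4), and its summed level ran from 2.13 to 113 CPM in the controls and from 1.49 to 19.9 CPM after insemination. CSF3R, the receptor for granulocyte colony-stimulating factor, was at 1.11, 2.41, 77.7, 1.78 and 0.306 CPM.

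Antigen presentation genes were highest in the same controls. CD74, the invariant chain of class II molecules, was at 261, 184, 1050, 762 and 353 CPM, against 211 to 458 CPM, and the transactivator CIITA was at 5.24, 4.67, 30.6, 13.4 and 2.7 CPM, against 3.31 to 10.4 CPM. In both, controls 3 and 4 were above every inseminated library. The list had 7 of 24 genes wider (29.2%), but 0 without control 3, 2 without control 4 and 11 without control 5. Of 36 interferon response genes 4 passed (CXCL11, GBP1, GBP2 and IRF1), below the share of all genes, and 0 without control 3. CXCL10, an interferon-induced chemokine that did not pass, was at 126 CPM in control 3 and between 2.15 and 8.57 CPM in the other controls. T and NK cell genes had 2 of 16 wider (4 without control 1, 1 without control 3 or 4). The interferon list had a median SD of 0.774 in the controls and 0.749 in the inseminated groups.

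Smooth muscle genes set control 1 apart in the other direction. ACTG2, the gamma actin of smooth muscle, was at 38.6, 4050, 3960, 4540 and 2430 CPM, a 118-fold range, and at 518 to 5290 CPM (median 1950) after insemination. Control 1 was below every library of the study and the other 4 controls were inside the inseminated range. DES, the intermediate filament desmin, was at 151, 6700, 6520, 3580 and 2010 CPM, CNN1, calponin, at 75.9, 2810, 2430, 1850 and 1270 CPM, and MYH11 at 172, 4560, 1630, 2750 and 949 CPM. The mean log2 level of the 15 genes was 6.47, 10.65, 10.1, 9.65 and 9.25, against 7.93 to 10.44 after insemination.

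In 13 of the 15 smooth muscle genes the set above the gap was controls 2, 3, 4 and 5, against 6.21% of all genes of the control set. Of the 15, 10 were among the most variable. Yet 0 of 15 passed the spread test in the fit of all 20 libraries with limma, and 1 had an unadjusted p under 0.05. Leaving out control 2, 3, 4 or 5 alone gave 1 wider gene each. Their median SD was 1.72 in the controls and 0.987 in the inseminated groups, and 7 passed without controls 2 and 3. In the inseminated libraries the list had a median pair coefficient of 0.95, so its genes moved as a block there too. The share of muscle in each tissue piece and the level of these genes per muscle cell cannot be told apart.

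Stromal genes were low in both control 1 and control 3. COL1A1, a chain of type I collagen, was at 524, 3010, 442, 2230 and 2620 CPM, against 1320 to 6120 CPM, and COL3A1, of type III collagen, at 494, 2450, 436, 2360 and 2640 CPM, against 1650 to 5860 CPM. DCN, the proteoglycan decorin, was at 102, 558, 267, 99.4 and 445 CPM, against 223 to 818 CPM, with controls 1 and 4 below the inseminated range. The list had 8 of 15 genes wider, but 4 without control 1, 5 without control 3 and 5 without control 4. Its mean log2 level was 5.82, 7.49, 6.73, 7.33 and 7.66, against 7 to 8.52 after insemination. THY1, a surface protein of fibroblasts, and FN1, fibronectin, went the other way in control 3, at 516 and 777 CPM against at most 62.9 and 252 CPM in the other controls.

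The epithelial list had a similar mean level in all 5 controls. Of its 19 genes 2 passed as wider, with a median control SD of 0.645 against 0.566 for all genes, and its mean log2 level was 7.41 to 8.15 in the controls and 6.02 to 7.73 after insemination. EPCAM was at 305, 256, 555, 265 and 288 CPM and KRT18, a keratin of simple epithelia, at 378, 498, 320, 254 and 307 CPM; both lay above all inseminated libraries (at most 242 and 237 CPM) in every control. KRT19, another keratin, was at 1650, 518, 70.9, 736 and 1270 CPM, with control 3 below all inseminated libraries. The 2 genes called wider were ELF3, an epithelial transcription factor (35.4, 90.1, 178, 220 and 11.4 CPM, against 5.79 to 25.4 CPM), and ESRP1, an epithelial splicing regulator (81.2, 93.8, 90.4, 50 and 58.5 CPM, against 54.4 to 79.3 CPM). KRT19 and ELF3 were among the most variable genes. The list's count of wider genes depended on single libraries, with 6 without control 1, 5 without control 2, 3 without control 4 and 7 without controls 1 and 4. Ribosomal protein genes had 1 of 64 wider (0 without control 2 or without control 3, 7 without control 4, 2 without control 5 and 15 without controls 1 and 4), and oxidative phosphorylation genes had 9 of 24 wider, with mean log2 levels of 6.1 (control 4) to 7.16 (control 5) and 4 wider without control 4.

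The remaining lists are given by their counts. Matrix proteases and their inhibitors had 8 of 16 genes wider, endoplasmic reticulum stress genes 7 of 21 and heat shock genes 6 of 18. Inflammatory cytokines had 5 of 16 wider (3 without control 4), ion and water transport genes 5 of 19, vitamin D and calcium genes 4 of 11 (2 without control 3) and nutrient transporters 4 of 24. The ion and water transport count includes KCNJ16, and the vitamin D and calcium count includes CYP24A1. Both genes reached 1 CPM only in controls, so they were tested only through the libraries where they are high. Prostaglandin genes had 3 of 18 wider (1 without control 2 or without control 5) and sterol and fatty acid synthesis genes 2 of 22 (1 without control 1 or 2). Retinoid genes had 2 of 16 wider (6 without control 3, 5 without control 4 or 5) and B and plasma cell genes 2 of 6 (0 without control 2 or 5). Markers of endothelium had 1 of 15 wider (0 without control 2) and those of motile cilia 1 of 19 (0 without control 2 or 3). Red blood cell, mast cell, sperm and early embryo genes had 0 wider among 4, 4, 5 and 3 tested with limma, and at an unadjusted p under 0.05 these lists had 1, 0, 0 and 1. Leaving out control 1 or 4 gave 1 wider red blood cell gene, and leaving out control 2 gave 1 wider early embryo gene. The summed level of the red blood cell genes was 17.3 to 609 CPM in the controls and 11.6 to 1870 CPM after insemination, so the ranges overlapped.

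**Figure D4:**
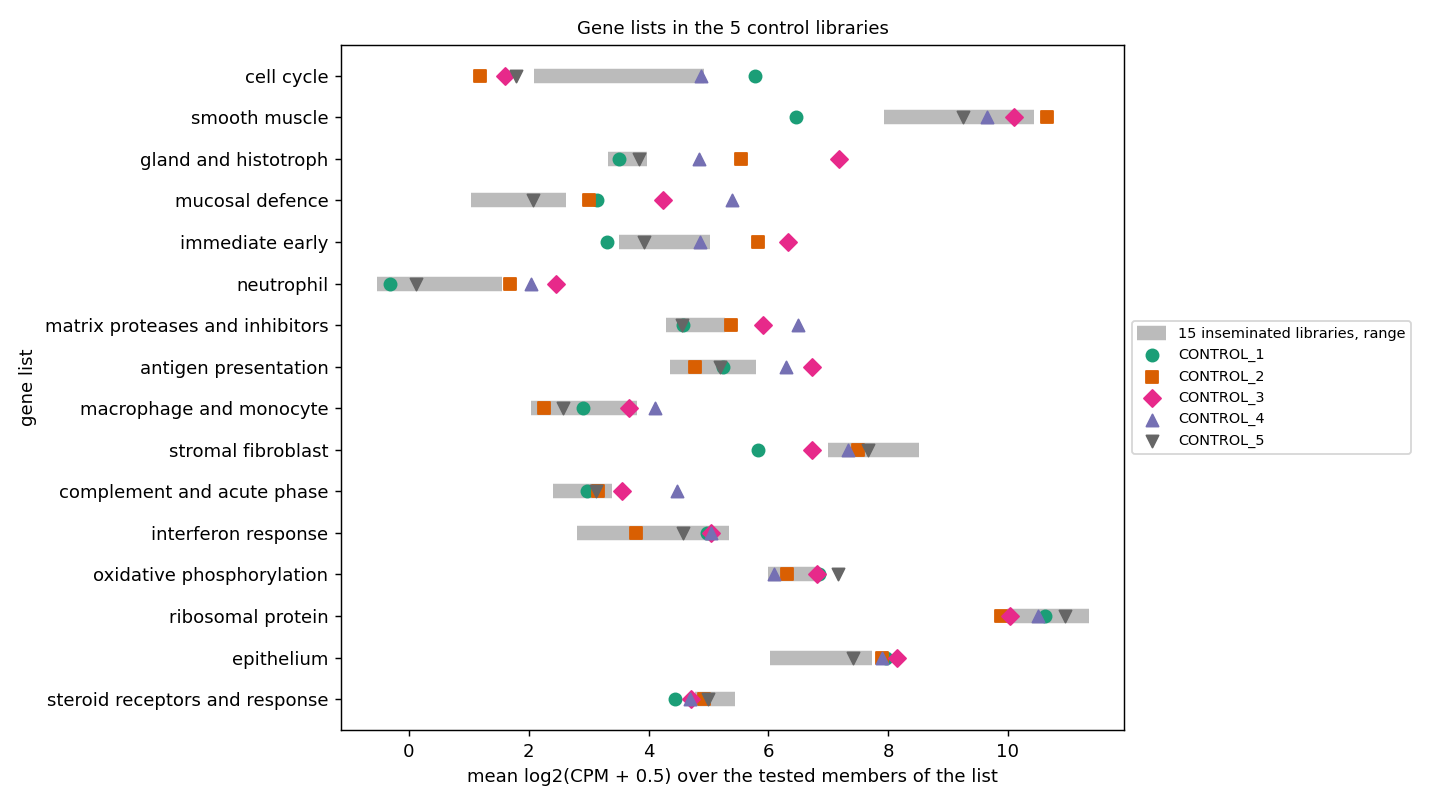
Mean log2(CPM + 0.5) of the tested genes of 16 lists in each control library (symbols), with the range of the 15 inseminated libraries as a grey bar. Control 1 is highest for the cell cycle list (5.78) and lowest for smooth muscle (6.47), controls 2 and 3 are highest for the immediate early list, and control 4 is highest for mucosal defence (5.39).

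Control 5 was set apart by another group of genes, several of which were also high after insemination. MT3, a metallothionein, was at 13.1, 13.9, 9.83, 0.87 and 297 CPM, against 43.6 to 240 CPM, so 4 controls were below and 1 above every inseminated library. SPDEF, a transcription factor of secretory epithelial cells, was at 41, 97.3, 21.1, 57.9 and 834 CPM, against 101 to 637 CPM, with the same split. MGP, matrix Gla protein, was at 18.7, 68.1, 42.2, 44.8 and 468 CPM, against 40.9 to 373 CPM. Control 5 was the lowest control for DMBT1, MUC4 and VNN2, a surface pantetheinase that was at 16.8, 116, 158, 1440 and 0.094 CPM and at most 0.934 CPM after insemination.

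Among the 37 most variable genes with control 1 alone above the gap, control 1 exceeded every inseminated library in 26, against 20.1% of all tested genes. The 37 genes were chosen by their control values, so nothing is read from that count. GABRP, 1 of the 26, was at 1650, 13.6, 22.7, 35.3 and 71.6 CPM, against a median of 554 CPM after insemination. UPK3A, a uroplakin, was at 702, 8.11, 3.82, 13.8 and 85.1 CPM, against 1.09 to 881 CPM (median 384), and SMPD3, a neutral sphingomyelinase, at 576, 9.12, 1.54, 3.65 and 31.9 CPM, against 6.39 to 687 CPM. In FR1_1, FR1_4, FR2_3 and FR3_4, UPK3A was at 12.9, 1.09, 4.7 and 16.8 CPM, and in the other 11 at 209 to 881 CPM. Control 1 was within the range of these 11, and controls 2, 3 and 4 within that of the 4. S100G, a calcium-binding protein of epithelia, was different, at 450, 44.4, 3.43, 38.8 and 16.9 CPM, against at most 89.3 CPM.

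Genes that vary among the controls often varied within the inseminated groups too. Across the 14900 genes of the control set the control SD and the pooled inseminated SD had a Spearman coefficient of 0.62, as a description over genes. Of the 745 most variable genes 246 (33%) were also in the upper 5% by pooled inseminated SD. CYP26A1, which breaks down retinoic acid, had a control SD of 4.24 and a pooled SD of 4.07: it was at 102, 226, 9.44, 0 and 883 CPM in the controls and at 0 to 3000 CPM (median 1010) after insemination. CDH17, a cadherin of epithelia, was at 17.9, 34.7, 2.33, 0.806 and 407 CPM, against 0 to 745 CPM (ratio 0.966), and UPK3A had a ratio of 0.95.

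Other genes had a control SD many times the inseminated one. SULT2A1 had a ratio of 26.8, UABP-2 of 88.1 and SERPINB7, a serine protease inhibitor, of 15.6; all 3 were near 0 CPM after insemination, where the pseudocount bounds the SD. Among genes well expressed in all groups, PSAP had a ratio of 11.3. FAM13A had a ratio of 9.58, at 28, 134, 248, 29 and 25.9 CPM against 24.2 to 37.8 CPM. HSP90AB1, a constitutive heat shock protein, had a ratio of 4.47, at 3010, 897, 877, 2380 and 1020 CPM against 1310 to 2170 CPM, again with controls 1 and 4 high.

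Growth factor genes gave further contrasts between neighbours of a pathway. IGFBP2, which binds insulin-like growth factors, was at 219, 6.61, 310, 797 and 9.64 CPM, against 10 to 38.4 CPM, with 3 controls above and 2 below every inseminated library. IGF1, the growth factor itself, was at 21.1, 165, 54.6, 16.8 and 244 CPM, against 57.2 to 143 CPM, high in the 2 controls where IGFBP2 was low. IGF1R, its receptor, was at 71.4, 201, 341, 40.2 and 32 CPM, against 35.2 to 109 CPM. Of 11 genes on that list 4 passed as wider (36.4%). CYP24A1, which breaks down vitamin D, was at 36, 13, 66.6, 45.5 and 0.282 CPM and at most 0.285 CPM after insemination, so 4 controls were above every inseminated library. CYP24A1 was tested only through the controls, and nothing is read from its call.

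**Figure D5:**
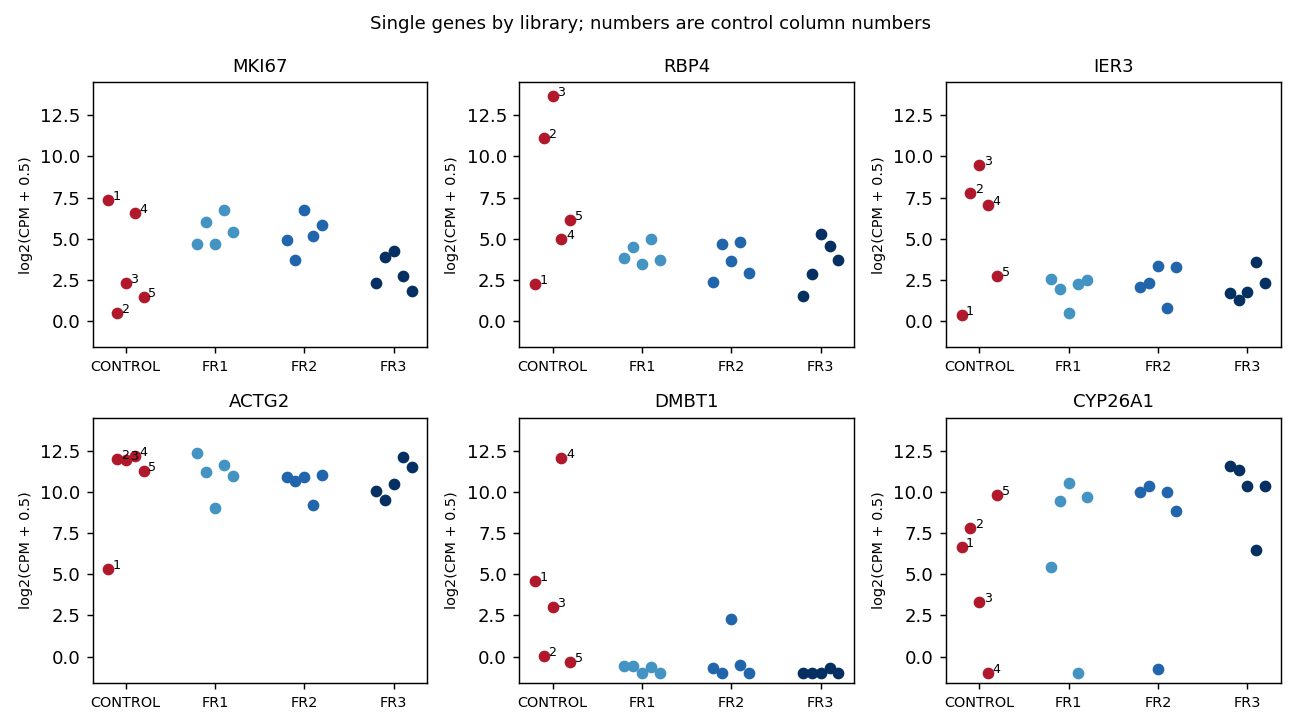
Level (log2(CPM + 0.5)) of 6 genes in each library by group, with control points numbered by column. MKI67 is high in controls 1 and 4, RBP4 in controls 2 and 3, IER3 in controls 2, 3 and 4, DMBT1 in control 4 and ACTG2 low in control 1, while CYP26A1 spreads as widely after insemination as among the controls.

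The smallest adjusted p-values of the spread test came from genes split in 2 among the controls and either level or near 0 CPM elsewhere. KCNJ16, a potassium channel, was at 0, 14.2, 10.2, 0 and 0 CPM, against at most 0.135 CPM, and its mean absolute deviation was 2.49 in the controls and 0.11 in the inseminated groups (difference 2.39 ± 0.16 SE, limma adjusted p = 8.45e-08). SPP1 had 3.81 against 0.26 (difference 3.55 ± 0.28 SE, limma adjusted p = 6.72e-07) and FGF7 4.28 against 0.36 (difference 3.92 ± 0.35 SE, limma adjusted p = 2.19e-06). CDH20, a cadherin, was at 0.167, 20.5, 28.1, 12.2 and 0.165 CPM, against at most 0.425 CPM (limma adjusted p = 1.61e-06). KCNJ16 and CDH20 reached 1 CPM only in controls, so they were tested only through the libraries where they are high. The pseudocount bounds their deviations after insemination, and nothing is read from their p-values. CYP7A1, known from bile acid synthesis, was at 0.125, 32.5, 58.5, 0.233 and 0.588 CPM (limma adjusted p = 2.19e-06). With deviations from the group median the limma adjusted p was 0.182 for KCNJ16, 0.125 for SPP1, 0.105 for FGF7, 0.119 for CDH20 and 0.16 for CYP7A1.

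The 28 genes called narrower in the controls included some that were simply level there. BCL7C, a chromatin remodeling subunit, was at 64.8 to 79.8 CPM in the controls and 50.1 to 135 CPM after insemination (limma adjusted p = 0.01), and BRF1, an RNA polymerase III factor, at 90.4 to 130 CPM against 64.3 to 218 CPM (limma adjusted p = 0.0325). ASPG, an asparaginase, still varied among the controls (199, 165, 668, 51.2 and 296 CPM) but less than after insemination, where it ran from 0.213 to 141 CPM (limma adjusted p = 0.0184). GALP, a galanin-like peptide, was at 0 in 4 controls and 0.125 CPM in control 1. The pseudocount bounds its control SD there, and GALP was tested only through its values after insemination. With the DESeq2 variance stabilising transformation its limma adjusted p was 0.0569.

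Some genes barely differed among the 5 controls. DGCR8, which processes microRNA precursors, was at 52.4, 53.7, 53.7, 53.6 and 52.5 CPM, an SD of 0.02, and at 49.4 to 68.9 CPM after insemination. RBM42, an RNA-binding protein, was at 116 to 125 CPM, SNW1, a splicing and transcription factor, at 72.9 to 79.4 CPM, and ANAPC2, a subunit of the anaphase-promoting complex, at 54.2 to 61.2 CPM. POLR2C, an RNA polymerase II subunit, was at 66.9 to 75.1 CPM and the transcription factor YY1 at 131 to 151 CPM. These genes were named for having the smallest control SDs among genes at 50 CPM or more in every control, so their steadiness is a description.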

How the data were processed

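Messenger RNA of the uterus was sequenced from 20 sows, 5 per group, after poly-T capture, per the labels' protocols. The tools named in the submitters' processing notes are Salmon 1.10.1, STAR 2.7.9a and CASAVA; genome build, annotation and strand setting are not given in the sources used here, so antisense partners cannot be told apart. The values the authors deposited are estimated counts per gene (expected counts), of which 87.2% are whole; they were rounded. Of 30369 rows, 24 name no gene and were left out (0.0036% to 0.0133% of counts). Library totals, in units of 1000000, were 33 to 62.9.

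Counts were scaled by TMM factors (edgeR 4.0.16, R 4.3.3) to CPM and put on the scale log2(CPM + 0.5). Fold ranges are ratios of CPM. The per-gene test used limma 3.58.1 with a mean trend on absolute deviations from the group mean, each corrected for group size, in 1 fit of all 20 libraries with 16 residual degrees of freedom and Benjamini-Hochberg adjustment over 15561 genes. The per-library test ran over all sets of libraries (exact permutation test) on deviations centred once on the true groups, so its p-values are approximate. Alternatives changed the scaling (totals, DESeq2 1.42.0), the pseudocount, the filter, the centre and measure of deviation, the comparison group and the libraries used. The per-gene test was tested on simulated counts: it gave SD ratios slightly below those simulated, passed a minority of the widened genes, and its false calls were all toward wider and more frequent among the calls than the threshold allows.

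The genes and the 35 gene lists were chosen with earlier results of these data known. Named genes are those with the largest and smallest control SD, the smallest p in each direction, the 6 highest-level genes of each frequent pattern, and up to 4 genes with the largest control SD per list, besides called list members and a few chosen after their values were seen. Of 762 list entries 726 were found. Salmon shares reads between similar genes, so values of SLA, serum amyloid, metallothionein and ribosomal protein genes are uncertain. No gene or protein sequence is printed.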

Additional observations from a re-analysis of the deposited data

Results flagged for a closer look

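Among 192 genes, 35 list means and the library measures checked, 15 genes, 0 list means and 2 library measures had 1 value whose gap to its nearest neighbour exceeded 0.71 of its group's range; about 1 in 20 groups of 5 would do so by chance, and several of these genes were picked for a large control SD. In control 3, SERPINB7 stood at 337 CPM against at most 2.99 in the other controls, SLC2A1 at 3410 against at most 145, CTSC at 1230 against at most 59.3, CD14 at 58.1 against at most 5.38, CSF3R at 77.7 against at most 2.41 and PFKFB3 at 349 against at most 24.2. In control 4, PLAT stood at 712 CPM against at most 10.9 and CXCL2, a neutrophil-attracting chemokine, at 35.2 against at most 2.73. In control 2, CHRNA7, a nicotinic receptor subunit, stood at 204 CPM against at most 1.1. In control 1, ACTG2 was low at 38.6 CPM against at least 2430, CNN1 at 75.9 against at least 1270, ACTA2, an actin of smooth muscle, at 221 against at least 2730 and IRF4, a lymphocyte transcription factor, at 0.209 against at least 1.92, while GALP was at 0.125 CPM against 0. BCL6B, a transcriptional repressor, was at 5.66 CPM in control 5 against at most 3.75.

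The mitochondrial share of counts was 3.22% in control 3 against at most 2.58% in the other controls. The distance from the group mean was 0.627 for FR2_3 against at most 0.41 in the other FR2 libraries.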

How the results depend on the processing

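No paired analysis was possible because the labels number the sows from 1 to 20 with no number shared between groups, and the columns name only the group. The difference in distance per library kept its direction and its side of the threshold under every alternative run, including FR3 alone (0.283, exact permutation p = 0.0238). The median SD ratio stayed between 1.32 (no filter) and 1.81 except for FR2 alone (2.18), and leaving out 1 library gave 1.4 to 1.69. The value of 1.81 came without FR1_1, FR1_4, FR2_3 and FR3_4, a setting added after the data were seen. The count of genes wider in the controls was 2646 to 3635 when 1 library was left out, 117, 359 and 18 against FR1, FR2 and FR3 alone, 1966 with the log2 of the absolute deviations and 0 with deviations from the group median. The count of narrower genes, 28 in the reported fit, was 22 to 46 when 1 library was left out (46 without FR3_3, 43 without FR1_2), 17 with the filter on the controls, 18 with a filter on the mean CPM, 391 with no filter, 4, 5 and 0 against FR1, FR2 and FR3 alone, 3 with squared deviations, 49 with the log2 measure and 0 with the group median. The single-group fits hold fewer libraries, and centring 5 libraries on their median sets at least 1 deviation per group to 0. Both are set by construction. Their part in the changed counts, and that of other causes, was not tested. Without controls 2 and 3, added after the data were seen, the differences of MEP1B (-0.03), FAM13A (-0.05) and LHFPL3 (-0.02), all set by these 2 controls, changed sign. Among 23 genes named for their p-value, 109 of the refits lost the call and 732 kept it. Control SDs of 177 other named genes stayed within 1.5 times in 5982 refits and left that range in 193, of which 177 left libraries out. With 5 controls an SD is imprecise, and genes near 0 CPM are limited by the pseudocount. A per-gene value for each sow could not be given because columns are not tied to sows.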
